A study of Rattus norvegicus with 12 samples.

Results

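Most genes described here code for subunits of the mitochondrial respiratory chain and the ATP synthase. They were measured in the forebrain of rats after a stay in a new environment. Members were probe sets with exactly 1 gene symbol that starts with Nduf, Sdh, Uqcr, Cox4, Cox5, Cox6, Cox7, Cox8 or Atp5. This gave 101 probe sets of 90 genes, among 14217 genes with 1 symbol, and each gene was read from its brightest probe set. By symbol prefix, 36 genes were of complex I, 4 of complex II, 7 of complex III, 17 of complex IV and 16 of complex V. The other 10 were assembly factors (Ndufaf and Sdhaf), which share the prefixes without being subunits. Some genes counted with a complex are not subunits either, such as the inhibitor gene Atp5if1 and the pseudogene Cox6c-ps1. A further 7 probe sets that carry several symbols, at least 1 of them with such a prefix, were left out.

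All animals were male Long Evans rats, 6 weeks old and housed singly beforehand. The 6 animals of the control group stayed in a standard laboratory cage. The 6 exposed animals spent 3 hours in a new environment, among objects of various shapes and colours. Forebrain RNA was measured on Affymetrix rat arrays, 1 per animal, with array medians between 235 and 245 intensity units. A change is the log2 intensity of exposed minus control animals and is followed by its standard error from limma, a linear model fitted to every probe set (6 animals in each group).

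The respiratory chain passes electrons from NADH (complex I) and succinate (complex II) through ubiquinone, complex III and cytochrome c to oxygen at complex IV, and the proton gradient so built drives ATP synthesis at complex V. Most subunits are encoded in the nucleus and a few in mitochondrial DNA, and the symbols used here are those of nuclear genes. Neurons rely on this chain to restore ion gradients after firing, and cytochrome oxidase staining is a classic marker of sustained neuronal activity.

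No respiratory chain gene passed the test for a higher or a lower level after 3 hours in the new environment. In limma, 0 of 90 genes had a Benjamini-Hochberg adjusted p under 0.05 (smallest adjusted p = 0.184, for Sdhaf1). Of all 31042 probe sets 2.56% passed (1.97% higher and 0.599% lower), as did 3.46% of the 14217 genes. At an unadjusted p under 0.05 there were 6 of the 90 genes (6.67%), 2 with a positive and 4 with a negative change, against 15.9% of all genes and 13.2% of all probe sets. In 0 of the 90 genes did the exposed animals all lie on the same side of every control animal, a separation seen in 3.38% of all genes. Changes ran from -0.22 for Cox6b2 to 0.10 for Cox8b, and 66 of the 90 were negative. The median change was -0.017, beside -0.0063 over the 12673 genes that lay above the intensity floor on at least 1 array. Of those 12673 genes, 6791 had a negative change. Among the 4057 genes with a mean log2 intensity of 10 or more, the median was -0.0092 and 2297 changes were negative. In bulk tissue, fewer cells of a type and less RNA per cell cannot be told apart.

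The intervals of the changes were narrow. Of the 89 genes above the floor on at least 1 array, 87 had a 95% interval that lay within a change of 1.2-fold in either direction, and 71 had an interval within 1.1-fold. The share within 1.2-fold was 97.8% for the respiratory chain genes and 83.4% over all genes above the floor. The respiratory chain genes were the brighter, with a median of the mean log2 intensity of 12.2 against 9.1. The shares were not compared at equal brightness. The exceptions were Cox6b2, a testis isoform, whose interval ran from 0.715-fold to 1.03-fold, and the pseudogene Cox6c-ps1, with 0.817-fold to 1.01-fold. Both were dim, at a mean log2 intensity of 6.10 and 6.45 with the floor at 5.75. The median spread between animals of a group was 0.057 (SD, log2) for the 89 genes and 0.085 over all genes above the floor. Among genes with a mean log2 intensity of 10 or more it was 0.053 for 75 respiratory chain genes and 0.064 for all 4057.

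**Figure D1:**
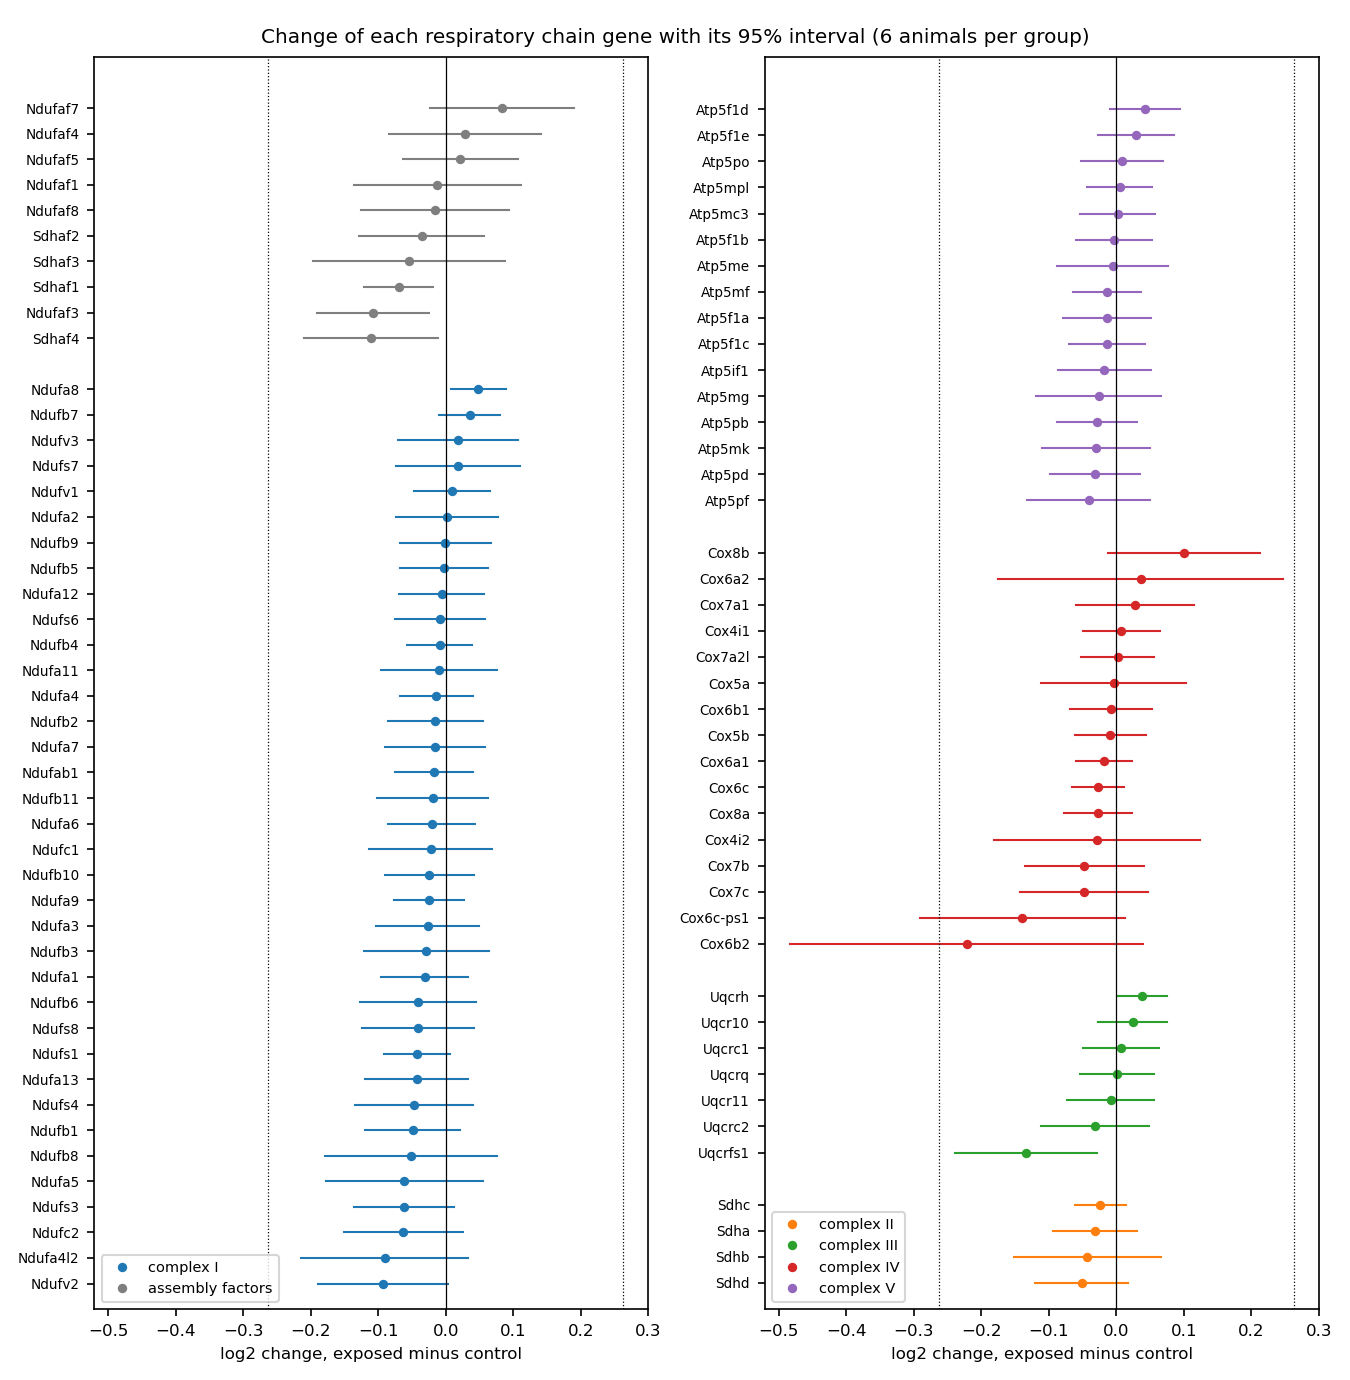
Change of each gene above the floor, as log2 intensity of exposed minus control animals, with its 95% interval from limma (6 animals per group); dotted lines mark a change of 1.2-fold. The intervals of 87 of 89 genes lie between the dotted lines, and those of Cox6b2 and Cox6c-ps1 cross the lower line.

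**Figure D2:**
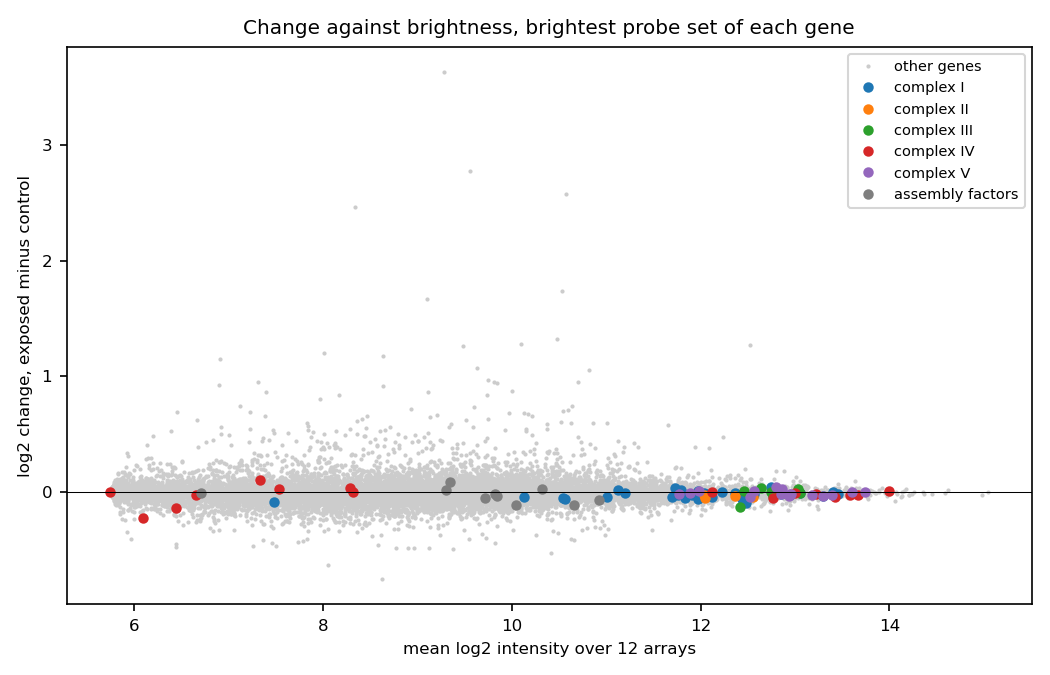
Log2 change (exposed minus control) against mean log2 intensity over 12 arrays, for the brightest probe set of each gene; light grey points are other genes, and larger points the 90 genes by complex and the assembly factors. The 90 genes lie between -0.22 and 0.10, while other genes reach 3.63.

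Complex I, the NADH dehydrogenase, had 36 genes by symbol prefix, with Ndufa4 and Ndufa4l2 counted among them. Of these 36, 0 passed in limma and 1 (2.78%) had an unadjusted p under 0.05, against 15.9% of all genes. Their median change was -0.022, with 30 of 36 changes negative. The gene with the smallest p was Ndufa8, an accessory subunit of the membrane arm. Its intensity was 6535, 6807 and 6951 (lowest, median and highest of 6) in control animals and 6867, 6976 and 7307 in exposed animals. The groups overlapped, with 4 of 6 exposed animals above every control, and the change was 0.048 ± 0.019 (adjusted p = 0.269 in limma). Ndufv2, an iron-sulfur subunit beside the site that oxidises NADH, had the change furthest from 0 in complex I. It ran from 5620 over 5934 to 6133 in control animals and from 4865 over 5672 to 5869 in exposed animals, a change of -0.093 ± 0.044 (adjusted p = 0.406). The lowest value was that of exposed animal 5, and 3 of 6 exposed animals lay below every control.

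By functional module, 0 genes of complex I passed in any. The median change was -0.012 over 10 genes of the module that takes electrons from NADH and -0.042 over 5 genes of the module that passes them to quinone. It was -0.022 over 19 accessory genes of the membrane arm, with 17 changes negative. Ndufv1, which binds NADH, had a median of 3981 in control and 4045 in exposed animals (change 0.0095 ± 0.025). Ndufs1, the largest iron-sulfur subunit, had 3376 and 3247 (-0.043 ± 0.022, adjusted p = 0.467). Ndufa4, first named as a complex I subunit and now known from complex IV, had medians of 11378 and 11137 (-0.014 ± 0.024). Its relative Ndufa4l2, a gene induced by low oxygen, was dim at medians of 185 and 178 (-0.091 ± 0.056, adjusted p = 0.593).

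Complex II, succinate dehydrogenase, is also an enzyme of the tricarboxylic acid cycle. Its 4 subunit genes all had a small negative change, and 0 passed in limma or had an unadjusted p under 0.05. The flavoprotein gene Sdha ran from 5160 over 5319 to 5524 in control animals and from 4960 over 5133 to 5518 in exposed animals. In 4 of 6 exposed animals it lay below every control, while exposed animals 5 and 6 were within the control range, and the change was -0.031 ± 0.028 (adjusted p = 0.804). The iron-sulfur subunit gene Sdhb had medians of 6283 and 5929 and a change of -0.043 ± 0.050. The membrane anchor Sdhc had 4226 and 4153 (-0.024 ± 0.017). The other anchor, Sdhd, ran from 4100 over 4288 to 4527 and from 3946 over 4182 to 4410, and its change of -0.051 ± 0.031 was the largest of the complex (adjusted p = 0.590). The interval of Sdhd ran from 0.920-fold to 1.01-fold.

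Complex III, the cytochrome bc1 complex, had 0 of 7 genes that passed and 2 with an unadjusted p under 0.05, 1 in each direction. The share of the 2 was 28.6%, against 15.9% of all genes. Uqcrfs1, the Rieske iron-sulfur protein, ran from 5067 over 5797 to 6273 in control animals and from 4948 over 5268 to 5531 in exposed animals. The groups overlapped through control animal 2, the lowest control, and 2 of 6 exposed animals lay below every control. The change was -0.134 ± 0.048 (interval 0.847-fold to 0.981-fold) and did not pass in limma (adjusted p = 0.222). Without control animal 2 it was -0.169, at an adjusted p of 0.04996, the single call of a respiratory chain gene in 29 alternative fits. Over those fits the adjusted p of Uqcrfs1 ran from that value to 0.846.

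Uqcrh, the hinge protein of complex III, ran from 6138 over 6303 to 6442 in control animals and from 6375 over 6432 to 6599 in exposed animals. The exposed animals lay in the upper part of the control range or above it, and the change was 0.039 ± 0.016 (adjusted p = 0.321). The core protein gene Uqcrc1 had medians of 5588 and 5658 (0.0071 ± 0.026). Over the 7 genes, 4 changes were positive and 3 negative, with a median of 0.0014.

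Complex IV, cytochrome c oxidase, had 17 genes, of which 0 passed and 0 had an unadjusted p under 0.05. Cox4i1, the common form of a regulatory subunit, ran from 15724 over 16151 to 17050 in control animals and from 15738 over 16377 to 16735 in exposed animals. The exposed range lay inside the control range, and the change was 0.0076 ± 0.026, with an interval of 0.967-fold to 1.05-fold. The common forms Cox6a1 (-0.019 ± 0.019), Cox6b1 (-0.0072 ± 0.028) and Cox8a (-0.027 ± 0.023) had small changes. So did the subunit genes Cox5a (-0.0036 ± 0.049) and Cox5b (-0.0085 ± 0.024), and Cox7a2l, which helps join complexes into supercomplexes (0.0020 ± 0.025).

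Isoforms of complex IV known from other tissues were read from dim probe sets. Cox8b, a form of heart and skeletal muscle, had the highest change of the 90 genes. It ran from 145 over 156 to 163 in control animals and from 153 over 165 to 181 in exposed animals, a change of 0.10 ± 0.051 (adjusted p = 0.457), with 3 of 6 exposed animals above every control. The other muscle forms were Cox6a2 (medians 308 and 309, change 0.036 ± 0.096) and Cox7a1 (186 and 188, change 0.028 ± 0.040). Of 7 muscle marker genes measured, 0 passed and 0 had an unadjusted p under 0.05, and Ckm and Myl2 were at the floor on all 12 arrays. Cox4i2, a form known from lung, had medians of 101 and 101 (-0.029 ± 0.069). Cox6b2 ran from 61.3 over 76.7 to 85.7 in control animals and from 47.7 over 62.5 to 80.3 in exposed animals (-0.22 ± 0.12, adjusted p = 0.494), and was at the floor on 2 arrays. Cox6c-ps1 ran from 87.4 over 91.6 to 95.1 and from 69.0 over 84.7 to 96.7 (-0.139 ± 0.069, adjusted p = 0.435). Cox7b2 was at the floor on all 12 arrays, so no change can be given for it.

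Complex V, the ATP synthase, had 16 genes, of which 0 passed and 0 had an unadjusted p under 0.05. Their changes lay between -0.041 and 0.043, and all 16 intervals were within 1.1-fold. Atp5f1b, the catalytic beta subunit, ran from 13320 over 13770 to 14102 in control animals and from 13305 over 13512 to 14644 in exposed animals, with a change of -0.0030 ± 0.025. The highest value was that of exposed animal 5. Atp5f1a, the alpha subunit, had medians of 7976 and 7901 (-0.014 ± 0.030). The smallest p belonged to Atp5f1d, the delta subunit of the central stalk, with medians of 7023 and 7209 (0.043 ± 0.024, adjusted p = 0.509). It was followed by the epsilon subunit gene Atp5f1e, with 7381 and 7496 (0.029 ± 0.026, adjusted p = 0.798). Atp5if1, an inhibitor that limits reverse action of the enzyme, had medians of 3532 and 3504 (-0.018 ± 0.031).

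Among the 10 assembly factors, which help to build complexes I and II, 0 passed, while 3.46% of all genes did. An unadjusted p under 0.05 was reached by 3 (30%), each with a negative change, against 15.9% of all genes. Sdhaf1, needed for the iron-sulfur clusters of Sdhb, ran from 1906 over 2003 to 2069 in control animals and from 1816 over 1909 to 1927 in exposed animals. The groups overlapped through control animals 1 and 2, and the change was -0.070 ± 0.023 (adjusted p = 0.184). Ndufaf3, a complex I assembly factor, ran from 1581 over 1708 to 1789 and from 1487 over 1578 to 1653 (-0.108 ± 0.038, adjusted p = 0.205). Sdhaf4, which assists Sdha, ran from 1030 over 1098 to 1172 and from 940.4 over 1028 to 1091 (-0.111 ± 0.045, adjusted p = 0.297). In Ndufaf3 and Sdhaf4 the lowest values were those of exposed animals 3 and 5, and 3 of 6 exposed animals lay below every control.

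**Figure D3:**
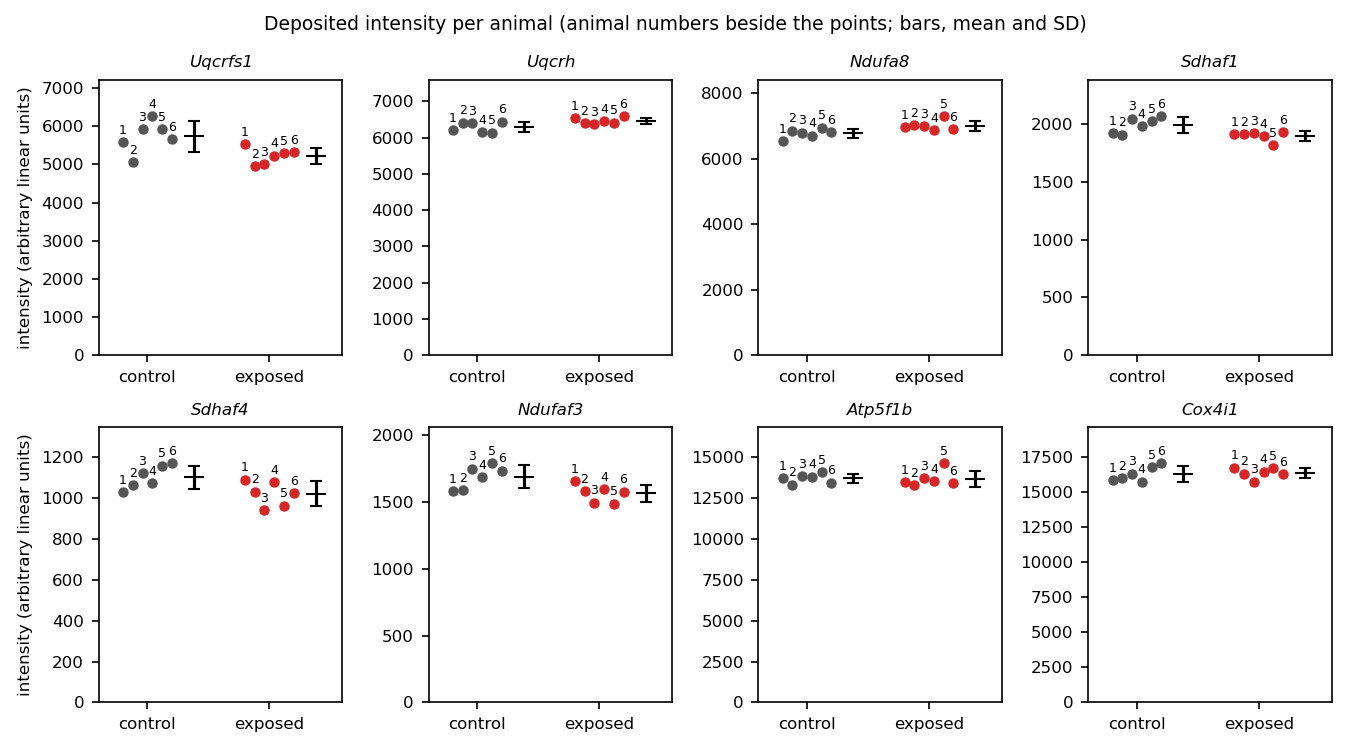
Deposited intensity of 8 genes in each animal, on linear axes that start at 0; points are animals with their numbers, and bars give the mean and SD of 6 animals. The groups overlap in every panel: Uqcrfs1 has an exposed median of 5268 against 5797 in control animals, and Cox4i1 has 16377 against 16151.

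The dimmer probe sets of the same genes added no call. Of 11 such probe sets, of 10 genes, 0 passed in limma and 0 had an unadjusted p under 0.05. A dimmer Sdhd probe set ran from 2482 over 2686 to 2968 in control animals and from 2378 over 2526 to 2762 in exposed animals (-0.102 ± 0.051, adjusted p = 0.443), the same sign as the brightest. The dimmer Ndufa7 probe set had the lowest change (-0.104 ± 0.051), and a dimmer Ndufa9 probe set had the highest (0.091 ± 0.074), while the brightest of Ndufa9 had -0.025 ± 0.023.

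Animals of the same group differed in the level of many respiratory chain genes at once. For each animal the log2 deviation from the control mean was averaged over the 89 genes above the floor. In control animals this mean ran from -0.067 (animal 1) to 0.055 (animal 5), with an SD of 0.042, and in exposed animals from -0.049 (animal 5) to 0.011 (animal 1), with an SD of 0.027. The exposed mean was -0.022, a distance from the control mean that was smaller than either SD, and the groups overlapped. In control animal 1, 79 of 89 genes lay below the control mean, while in control animal 5 there were 11. Control animals 1 and 5 also held the ends of the control range of the RNA quality measure given below. Complex I spanned -0.094 to 0.064 and complex V -0.074 to 0.059 in control animals, with animal 1 lowest and animal 5 highest in both. Control animals 1 and 2 were also the lowest of their group for complexes II and III. The assembly factors had another order, with control animal 4 (-0.047) and exposed animals 3 (-0.124) and 5 (-0.091) the lowest of their groups.

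**Figure D4:**
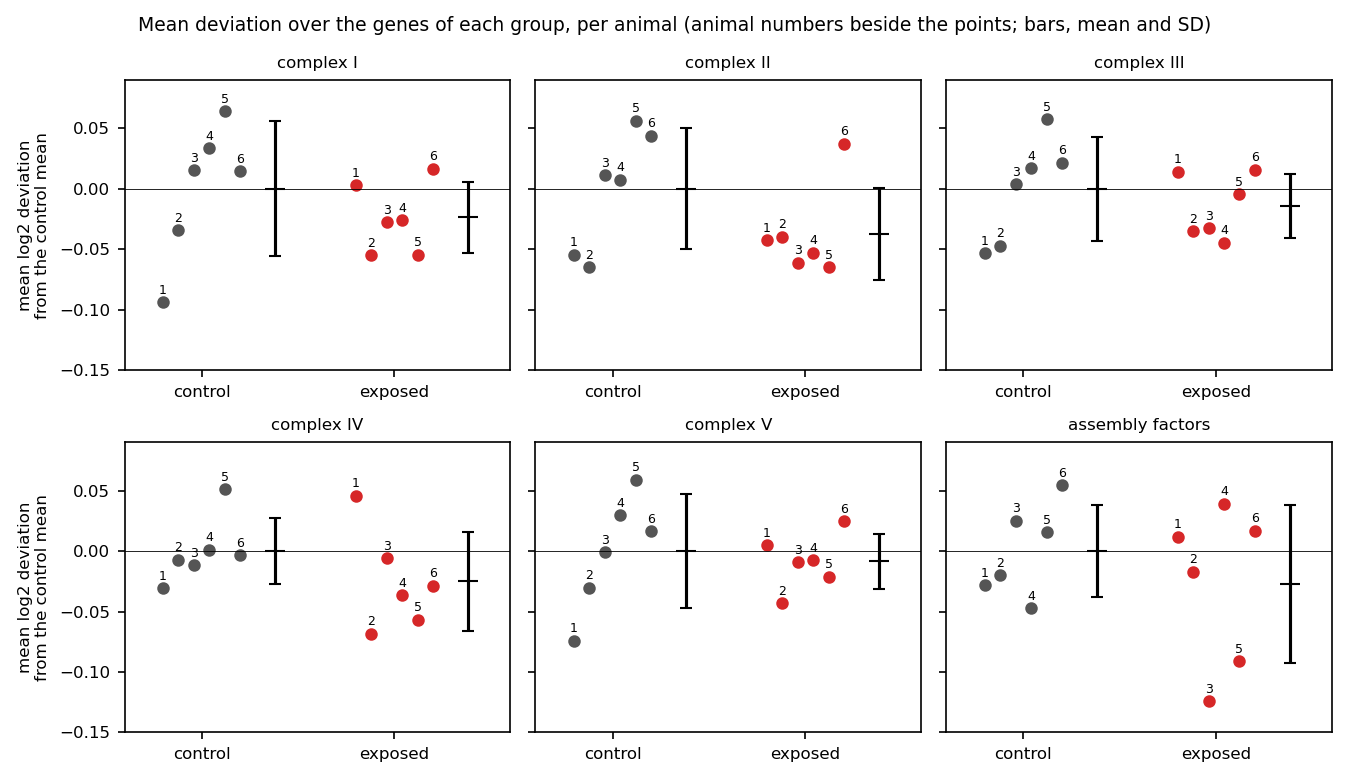
Mean log2 deviation from the control mean over the genes of each complex and over the assembly factors, for each of 12 animals (numbers beside the points); bars give the mean and SD of 6 animals. Control animal 1 is lowest and control animal 5 highest among controls in complexes I and V, at -0.094 and 0.064 for complex I, and the groups overlap in every panel.

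The small median change stayed negative with any 1 animal left out (-0.032 to -0.0080) and without control 4 and exposed 3 and 5 (-0.0047), but its sign differed between the animal numbers. Within animals numbered 1 to 3 the median over the 90 genes was 0.010, with 37 negative changes, and within those numbered 4 to 6 it was -0.043, with 75. With the group in the fit, numbers 4 to 6 were above numbers 1 to 3 by a median of 0.037, and 0 of 90 genes passed that comparison in limma, as did 0.00966% of all probe sets (3 of 31042), so the count of 0 says nothing particular about these genes. At an unadjusted p under 0.05 there were 14 of the 90 genes (15.6%), against 9.14% of all genes. RNA quality was read from the array controls as log2 signal at the 3 prime end minus that at the 5 prime end of a transcript. It averaged 0.39 ± 0.047 (SD, 6 animals) in the control group and 0.45 ± 0.070 in the exposed group. Exposed animal 3 had 0.586, and the other exposed animals 0.391 to 0.443. Controls numbered 1 to 3 had 0.414 to 0.439 and those numbered 4 to 6 had 0.332 to 0.373, while in exposed animals these sets overlapped. Among controls, animal 1 was highest and animal 5 lowest, the reverse of their mean deviation. Among exposed animals the lowest mean deviation was that of animal 5, not animal 3. The part of RNA quality in the spread between animals was not tested. With this measure as a covariate the median change was 0.0013 and 43 of 90 changes were negative.

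Among cell type markers, the summed intensity of endothelial and mural genes was 8203 to 9047 in control and 7673 to 8075 in exposed animals, with no overlap. Of these 10 genes 1 fell: Slco1a4, a transporter of brain endothelium, with a change of -0.285 ± 0.041 (adjusted p = 0.00364 in limma). All 10 changes were negative, and 3 of 10 had an unadjusted p under 0.05, against 15.9% of all genes. A sum of intensities is weighted towards bright genes, and Slco1a4 had a mean log2 intensity of 10.98, where the list median was 8.84. Whether the sum separates the groups without Slco1a4 was not tested. The part of these 10 genes in the respiratory chain values was not tested either. In the neuron, astrocyte, oligodendrocyte, microglia, choroid plexus and blood lists 0 genes passed in limma. Unadjusted p-values under 0.05 were reached by 4 of 13, 0 of 7, 1 of 7, 0 of 8, 0 of 5 and 0 of 3 measured genes. For the neuron list this was 30.8%, with 3 genes higher and 1 lower, against 15.9% of all genes. The summed levels of these lists overlapped between the groups, at 70512 to 72772 in control and 69692 to 73350 in exposed animals for the 13 neuron markers.

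Of 6 lists of mitochondrial genes outside the symbol prefixes, 5 had 0 genes that passed. The list of biogenesis regulators had 1 of 18, while 3.46% of all genes passed. At an unadjusted p under 0.05 in limma, this list had 3 of 18 (16.7%), against 15.9% of all genes. The gene that passed was Pprc1, the PGC-1-related coactivator that acts with the transcription factor NRF-1 on respiratory chain genes. Pprc1 ran from 249.6 over 255 to 279 in control animals and from 289 over 297 to 307 in exposed animals. All 6 exposed animals lay above every control, where 3.38% of all genes had such a separation in either direction. Pprc1 rose by 0.192 ± 0.034, or 1.14-fold (adjusted p = 0.0129 in limma). It passed in 25 of 29 alternative fits. Of the 4 in which it did not, 3 used fewer animals. The change was 0.194 within animals numbered 1 to 3 (adjusted p = 0.352) and 0.189 within those numbered 4 to 6 (adjusted p = 0.405), and without control 4 and exposed 3 and 5 it was 0.195 (adjusted p = 0.0754).

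The other 17 regulators did not pass in limma. Esrra, an orphan nuclear receptor of respiratory genes, had a change of 0.086 ± 0.021 (adjusted p = 0.0665). Polg, the mitochondrial DNA polymerase, had 0.178 ± 0.046 (adjusted p = 0.0756), and each had 5 of 6 exposed animals above the highest control. The coactivator gene Ppargc1a had a change of -0.037 ± 0.060, Nrf1 itself 0.072 ± 0.046, Gabpa 0.0038 ± 0.051 and Tfam, which packs and helps transcribe mitochondrial DNA, 0.0032 ± 0.039. These regulators were named after their values were seen.

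The remaining lists showed small medians. They were -0.028 over 33 assembly factors with other symbols, -0.032 over 16 genes of electron carriers and nucleotide exchange, and -0.019 over 16 genes of the tricarboxylic acid cycle. For 73 mitochondrial ribosomal proteins the median was -0.020 and for 24 import genes -0.0094. Unadjusted p-values under 0.05 in limma were reached by 4, 3, 1, 7 and 0 genes of these lists. The shares were 12.1%, 18.8%, 6.25%, 9.59% and 0%, against 15.9% of all genes. Etfa, an electron transfer flavoprotein gene, had a change of -0.159 ± 0.040 (adjusted p = 0.0714), with 4 of 6 exposed animals below every control. Vdac2, a channel of the outer membrane, had -0.045 ± 0.012 (adjusted p = 0.0954), with 6 of 6. Both were chosen after their values were seen. Full separation of the groups, in either direction, was seen in 3.38% of all genes.

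Promoters of the respiratory chain genes were searched for the core of the NRF-1 site, CGCATGCG, since Pprc1 acts with that factor. RefSeq promoters of the GRCr8 build (250 bases before to 50 after the gene start) were matched for 82 of the 90 genes. The core was found in 8 of 82 (9.76%), and in 1.66% of all 33469 promoters. Each of the 82 genes gave 1 promoter, while the 33469 were not restricted to the 14217 measured genes. The ETS motif CCGGAAGT, bound by GABP, was found in 9.76% against 3.81%, the YY1 motif AAGATGGCG in 13.4% against 1.73%, and the cyclic AMP response element TGACGTCA in 3.66% against 1.83%. Both strands were searched, none of these motifs contains another, and the median GC content was 56.0% for the 82 promoters and 51.7% for all. The stretches below show the core in capitals with 20 bases on each side (Ndufa11 holds 2 overlapping cores, both in capitals, and the flanks are those of the first), so that the site can be set beside the RNA values of its gene.
Atp5me, chr14:1464765-1464812, plus strand: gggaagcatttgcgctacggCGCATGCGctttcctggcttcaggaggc
Atp5po, chr11:44657514-44657561, minus strand: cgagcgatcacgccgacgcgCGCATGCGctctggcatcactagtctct
Ndufa11, chr9:1637498-1637545, plus strand: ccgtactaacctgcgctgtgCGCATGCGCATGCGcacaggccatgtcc
Ndufaf4, chr5:43401618-43401665, plus strand: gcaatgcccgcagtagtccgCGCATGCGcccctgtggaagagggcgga

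The core starts 75 bases before the gene start in Atp5me, 58 in Atp5po, 96 in Ndufa11 (the first of its cores) and 157 in Ndufaf4. The changes were -0.0055 ± 0.037 for Atp5me, 0.0092 ± 0.028 for Atp5po, -0.010 ± 0.039 for Ndufa11 and 0.029 ± 0.051 for Ndufaf4. Over the 8 genes with the core, changes ran from -0.041 to 0.029, 4 of them positive, and 0 passed in limma. A match of letters describes the sequence and is not a bound site.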

How the data were processed

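The values are intensities, deposited by the authors on a linear scale for every probe set and array. Trizol-extracted RNA was column-cleaned and biotin-labelled by the Affymetrix standard, per the labels' protocols. The background correction, probe summary and normalization are not given in the sources used here, and no array was normalized again. Intensities below the 20th percentile (53.9) were set to it as a floor before log2. The model, with group alone, was fitted with limma 3.58.1 (lmFit, eBayes with trend) in R 4.3.3, adjusted by Benjamini-Hochberg over 31042 probe sets, without 57 array controls, and tested on simulated data. Precision is limited by the number of arrays.

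Gene names came from the platform annotation. Named genes were, for each complex, the 2 with the smallest p and the 1 with the largest change, core subunits and tissue isoforms fixed by name, and up to 6 called genes of each related list. The members, lists and rules were chosen with earlier results of these data known, and the promoter motifs after values were seen. Alternatives were other scalings, floors, fits and animals left out.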

Additional observations from a re-analysis of the deposited data

Results flagged for a closer look

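Of 84 groups of 6 values, 6 held an animal far from the rest by Dixon's criterion, where chance gives about 1 in 20. The mean deviation of complex II was 0.037 (log2) in exposed animal 6 and -0.065 to -0.040 in the other exposed animals. Exposed animal 5 stood apart in 3 genes. Its log2 intensity was 12.84 for Ndufa8 (other exposed animals 12.75 to 12.78), 10.83 for Sdhaf1 (others 10.89 to 10.91) and 13.84 for Atp5f1b (others 13.70 to 13.75). Among control animals, Cox8a was 13.61 in animal 2 (others 13.69 to 13.72) and Atp5f1a was 13.04 in animal 5 (others 12.94 to 12.98).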

How the results depend on the processing

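The count of respiratory chain genes that passed was 0 in 28 of 29 alternatives, and 0 to 1 with 1 animal left out. Their median change ran from -0.043 to 0.010, and was positive within animals numbered 1 to 3 and with the RNA quality covariate. Genes of the related lists that passed, 1 as reported, were 3 without the dimmest 40% of probe sets, 2 without a trend in eBayes, 3 with array weights, 2 with the number sets as a term, 0 within either number set, 0 without control 4 and exposed 3 and 5, and 1 to 4 with 1 animal left out. A replicate block on the animal numbers gave 0 such genes, with Pprc1 not passing at an adjusted p of 0.0991, 0 respiratory chain genes, and 435 probe sets in place of 796. Deviations of same-numbered animals correlated from -0.076 to 0.16, so the numbers were not taken as pairs, and animal 5 alone correlated best with its own number. A fit without probe sets that never rose above the floor was added after seeing the data. The number of arrays limits precision, and an interval within 1.2-fold does not show that a gene did not change.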
